A study of Bos taurus with 6 samples.

Results

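This report concerns 9 of the 1028 bovine miRNAs listed for each library, chosen because a role in the gonads, in aromatase or in the estradiol output of granulosa cells has been reported for them: bta-miR-202, bta-miR-224, bta-miR-383, bta-miR-378, bta-miR-378b, bta-miR-378c, bta-miR-22-3p, bta-miR-22-5p and bta-miR-320a. The choice was made with earlier results of these data known. The cells were primary bovine granulosa cells from small antral follicles (3 to 6 mm), obtained from slaughterhouse ovaries and cultured for 24 h at 37 °C in medium with exosome-depleted serum. Control cells then remained at 37 °C for a further 24 h while heat-stressed (HS) cells spent that time at 42 °C, with 3 biological replicates per group. How many animals contributed to a replicate is not given in the sources used here, and no genetic change or other agent was applied.

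Granulosa cells line the antral follicle and surround the oocyte. Under follicle stimulating hormone they convert androgens from the neighbouring theca cells into estradiol by means of aromatase, the product of CYP19A1. miRNAs are short RNAs that pair through their seed with messenger RNAs and lower the protein made from them, and several act on this pathway. miR-378 has been studied as a repressor of aromatase, miR-224 and miR-383 as miRNAs that raise estradiol release through SMAD4 and RBMS1, and miR-320 as a repressor of E2F1 and of the steroidogenic factor SF-1. miR-22 has been linked to estrogen receptor alpha and to the survival of granulosa cells, and miR-202 is known for its enrichment in ovary and testis.

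Library depth, recovered from the deposited values as whole miRNA reads, ran from 2076239 to 4590971 reads, and control replicate 1 had the fewest. It was not sequenced less: by the authors' counts it had the most reads of the controls after quality control. Its share of reads assigned to miRNAs was the lowest of the 6 libraries, so it differed in composition. Levels are given as normalised CPM, the authors' reads scaled to a common library size, and 1 read was worth 0.213 to 0.488 normalised CPM. The libraries hold no messenger RNA, so the granulosa label could only be set beside miRNA markers of other cells. Summed levels of the 3 erythroid markers were 12.5 to 52.7 normalised CPM in control and 20.9 to 62.7 in heat-stressed cells. For the 2 endothelial markers they were 228.1 to 351.6 and 130.8 to 265, and for the 3 leukocyte markers 582 to 709.1 and 452.3 to 672. The 6 epithelial markers summed to 62 to 96.9 and 51.9 to 88.9, and the 4 markers of theca or stroma to 1074 to 1759 and 1681 to 1820, most of it bta-miR-199a-3p. The groups overlapped for all 5 sums, no marker was at 0 in every library, and none of the markers tested reached an adjusted p of 0.2. Their part in the results below was not tested. In such bulk RNA, fewer cells of a type and less RNA per cell cannot be told apart.

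The 9 miRNAs together took 1.14% to 1.23% of the reads in control and 1.28% to 1.33% in heat-stressed libraries. These totals include bta-miR-320a, which held 27.5% to 38.4% of the set's reads in control and 37.8% to 45.2% in heat-stressed libraries. They therefore do not show a rise of the other members. Their levels spanned 4 orders of size. bta-miR-320a was the most abundant at a mean of 4590 normalised CPM over the libraries, followed by bta-miR-22-3p at 2826, bta-miR-202 at 2034 and bta-miR-378 at 2024. bta-miR-224 stood at 784.7. bta-miR-22-5p at 83.6 and bta-miR-378c at 71.9 came next, and bta-miR-383 was low at 8.33. bta-miR-378b was close to absent, at 0.317. The first 4 of these held 91.7% to 93% of the reads of the set. All are mature miRNAs of similar length, and each read stands for 1 molecule, so the levels need no correction for length, although ligation can favour some sequences over others.

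**Figure D1:**
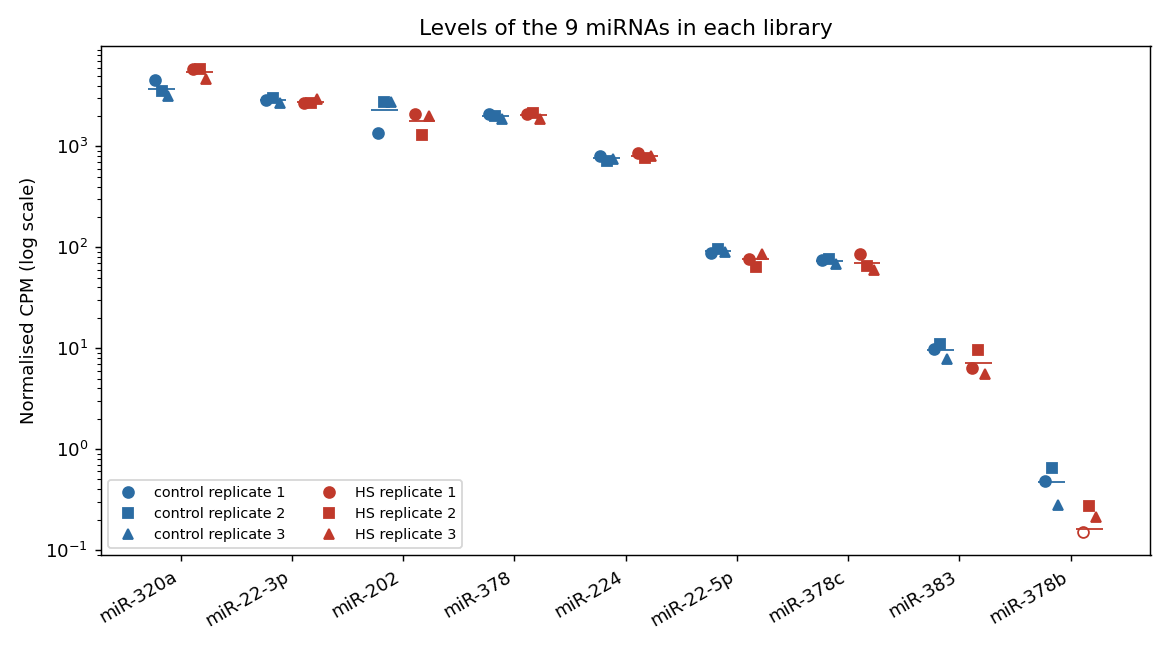
Normalised CPM (log scale) of the 9 miRNAs in each of the 6 libraries, ordered by mean level. Blue points are control and red points HS libraries, the symbol gives the replicate number, short lines are group means, and the open symbol marks a library listed at 0. Among the 8 members that passed the filter, bta-miR-320a and bta-miR-22-5p had groups that did not overlap, bta-miR-378b lay at or under 3 reads in every library, and bta-miR-202 had the widest scatter among the abundant members.

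Neighbours in this order were clearly apart at some steps and overlapped at others. bta-miR-320a exceeded bta-miR-22-3p in 6 of 6 libraries, by 1.15 to 2.16 times. bta-miR-22-3p exceeded bta-miR-202 in 5 of 6 libraries. bta-miR-202 and bta-miR-378 could not be ordered, since bta-miR-202 was the higher in 3 of 6 libraries with ratios from 0.604 to 1.45. bta-miR-378 exceeded bta-miR-224 in 6 of 6 libraries, by 2.35 to 2.82 times. bta-miR-22-5p exceeded bta-miR-378c in 4 of 6, so these neighbours also overlapped.

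To determine whether HS altered these miRNAs, each was compared between the groups in a limma fit over all 365 miRNAs that passed the filter on low reads. Of the 9 members 8 passed, and bta-miR-378b did not. None of the 8 reached the combined threshold (adjusted p of at most 0.2 and a change of 2-fold or more, that is 1 on the log2 scale), against 3.01% of all tested miRNAs. Without the fold minimum, 1 of the 8 was at an adjusted p of at most 0.2, bta-miR-320a, against 7.12% of all tested. None was at an adjusted p under 0.05, against 2.19% of all tested, and bta-miR-320a alone had an unadjusted p under 0.05, against 14.5%. By DESeq2 and by the edgeR quasi-likelihood test no member was at an adjusted p under 0.05 either, against 5.48% and 1.92% of all tested. Groups without overlap were seen for 2 of the 8, bta-miR-320a and bta-miR-22-5p, against 20% of all tested. These shares of the members are near those of all tested miRNAs. Of the 8 log2 fold changes 3 were above 0 and 5 below, with a median of -0.06 and a median size of 0.18, beside -0.0015 and 0.20 over all tested. Without bta-miR-320a, 2 of 7 were above 0 and 5 below, with a median of -0.075.

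**Figure D2:**
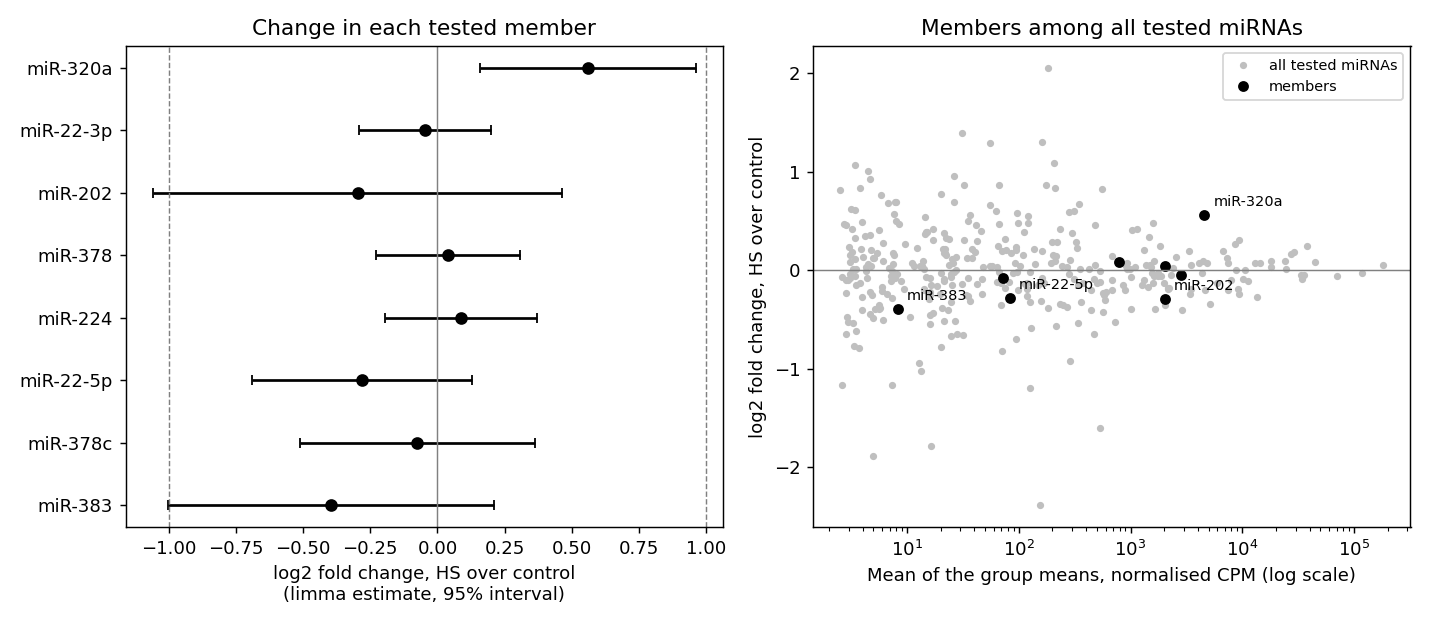
Left, log2 fold change (HS over control) of the 8 members tested, with 95% intervals from limma, a solid line at 0 and dashed lines at -1 and 1. Right, the same estimate against mean level for all 365 tested miRNAs (grey) with the members in black. bta-miR-320a, at 0.56, is the only member whose interval does not reach 0, and it lies above the other miRNAs of high level.

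bta-miR-320a, whose reported targets SF-1 and E2F1 were not measured here, had the largest log2 fold change of the members in the deposited scaling with all libraries. With upper quartile scaling it was 0.37 beside -0.56 for bta-miR-383 and -0.48 for bta-miR-202, and bta-miR-383 also exceeded it in size without control replicate 3 and without HS replicate 2. bta-miR-320a stood at 4552, 3504 and 3127 normalised CPM in replicates 1, 2 and 3 of the control and at 5806, 5842 and 4706 in HS replicates 1, 2 and 3. Each HS library lay above each control library, though HS replicate 3 and control replicate 1 were separated by little. The means were 3728 ± 738 in control and 5451 ± 646 in heat-stressed cells (SD, n = 3 each), a ratio of 1.46. The log2 fold change was 0.56 ± 0.169 (SE), with a 95% interval of 0.16 to 0.96 (limma adjusted p = 0.199). The adjusted p lay at the edge of the 0.2 threshold and depended on the libraries. It was 0.0608 without control replicate 1, where the log2 fold change was 0.71, and it rose to 0.287 without control replicate 2, 0.492 without control replicate 3, 0.423 without HS replicate 1, 0.512 without HS replicate 2 and 0.302 without HS replicate 3. In these 5 fits the log2 fold change was 0.52, 0.44, 0.51, 0.51 and 0.66, and over all tested miRNAs 29, 12, 13, 8 and 9 passed the 0.2 threshold, against 26 with every library. The adjusted p of bta-miR-320a was also 0.218 when the recovered reads were tested by edgeR's quasi-likelihood method and 0.412 with upper quartile scaling, under which the groups overlapped. The direction was upward in every one of these fits.

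bta-miR-320a was also set beside the other abundant miRNAs. Among the 77 tested miRNAs with a mean of at least 1000 normalised CPM, a minimum set after the values were seen, the median size of the log2 fold change was 0.10, and in this fit no other miRNA had one as large as the 0.56 of bta-miR-320a. The next highest was bta-miR-34a at 0.48, and the lowest was bta-miR-708 at -0.40. In all, 3 of the 77 were at an adjusted p of at most 0.2 in limma, bta-miR-320a, bta-miR-660 and bta-miR-708. Counting error was small beside the spread, at 0.928% in control and 0.705% in heat-stressed cells against coefficients of variation of 19.8% and 11.8%.

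Ratios within a library do not depend on how libraries were scaled to each other, so bta-miR-320a was also set against the steadier members. These ratios were formed after the values were seen and were not tested. The ratio of bta-miR-320a to bta-miR-378 was 2.16, 1.75 and 1.67 in control and 2.76, 2.70 and 2.49 in HS replicates 1, 2 and 3. The groups did not overlap, with 1.86 ± 0.263 in control and 2.65 ± 0.143 in heat-stressed cells (SD, n = 3 each). Against bta-miR-22-3p the ratio was 1.30 ± 0.246 in control and 1.97 ± 0.313 in heat-stressed cells, and against bta-miR-224 it was 4.88 ± 0.765 and 6.76 ± 0.89. Here the groups were only just apart. Control replicate 1 and HS replicate 3 stood at 1.58 and 1.61 against bta-miR-22-3p and at 5.65 and 5.84 against bta-miR-224. The 3 ratios share bta-miR-320a as numerator, so they are not separate observations. As a share of the reads of all 9 members, bta-miR-320a took 27.5% to 38.4% in control and 37.8% to 45.2% in heat-stressed libraries, ranges that just overlapped.

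The RefSeq annotation (assembly ARS-UCD2.0) has 2 genes for bta-miR-320a. MIR320A-1 lies within 2000 bases of POLR3D, which encodes a subunit of RNA polymerase III, and MIR320A-2 lies inside RNF180. The deposited value does not say which gene the reads came from. The family member bta-miR-320b had 1 read in control replicate 2 and 0 in the other libraries, below the floor of 3 reads, so no comparison was possible.

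bta-miR-22 was measured as both arms of its hairpin. bta-miR-22-3p, the main arm, stood at 2879, 3023 and 2713 normalised CPM in control and at 2715, 2702 and 2926 in heat-stressed cells. The groups overlapped throughout, and the log2 fold change was -0.046 ± 0.103 (SE, limma adjusted p = 0.947). Omission of single libraries moved it between -0.086 (control replicate 3) and -0.008 (control replicate 2), and it was -0.232 with upper quartile scaling. It was among the steadiest miRNAs measured, as 2.19% of all tested had a smaller SD between replicates. The 95% interval of the fold ran from 0.817 to 1.15, so a change of 2-fold in either direction lay outside it.

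The minor arm bta-miR-22-5p stood at 88.4, 96.5 and 89.7 normalised CPM in control and at 77, 63.6 and 86.6 in heat-stressed cells. All HS libraries were below all control libraries, with HS replicate 3 close to the controls. Means were 91.5 ± 4.33 and 75.8 ± 11.5 (SD, n = 3 each), and the log2 fold change was -0.28 ± 0.173 (SE), with a 95% interval of -0.69 to 0.13 (limma adjusted p = 0.541). The change was -0.16 without HS replicate 2, -0.38 without HS replicate 3 and -0.46 with upper quartile scaling, where the groups stayed apart. With library totals in place of the deposited scaling they overlapped. The read numbers behind these values were 181, 444 and 322 for control replicates 1, 2 and 3 and 232, 234 and 407 for the HS replicates, and counting error was 6.02% and 6.07% beside coefficients of variation of 4.74% and 15.2%.

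Whether the arms moved apart was examined by their ratio, which is free of scaling apart from the 1 normalised CPM added to each arm for the log2 ratio. With 0.5 or 5 added instead, the difference given below was 0.236 or 0.221. bta-miR-22-3p exceeded bta-miR-22-5p by 32.6, 31.3 and 30.2 times in control and by 35.3, 42.5 and 33.8 times in HS replicates 1, 2 and 3. The log2 ratio was 4.96 ± 0.053 in control and 5.19 ± 0.172 in heat-stressed cells (SD, n = 3 each), a difference of 0.23. Without HS replicate 2 the difference was 0.136. The groups did not overlap, and the exact two-sided permutation test gave p = 0.1, the smallest value that 3 against 3 allows. The minor arm made up 3.09% ± 0.111 of both arms in control and 2.64% ± 0.303 in heat-stressed cells. MIR22 overlaps TLCD2 and a further miRNA gene, MIR3600, whose product bta-miR-3600 was listed at 0 in every library.

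**Figure D3:**
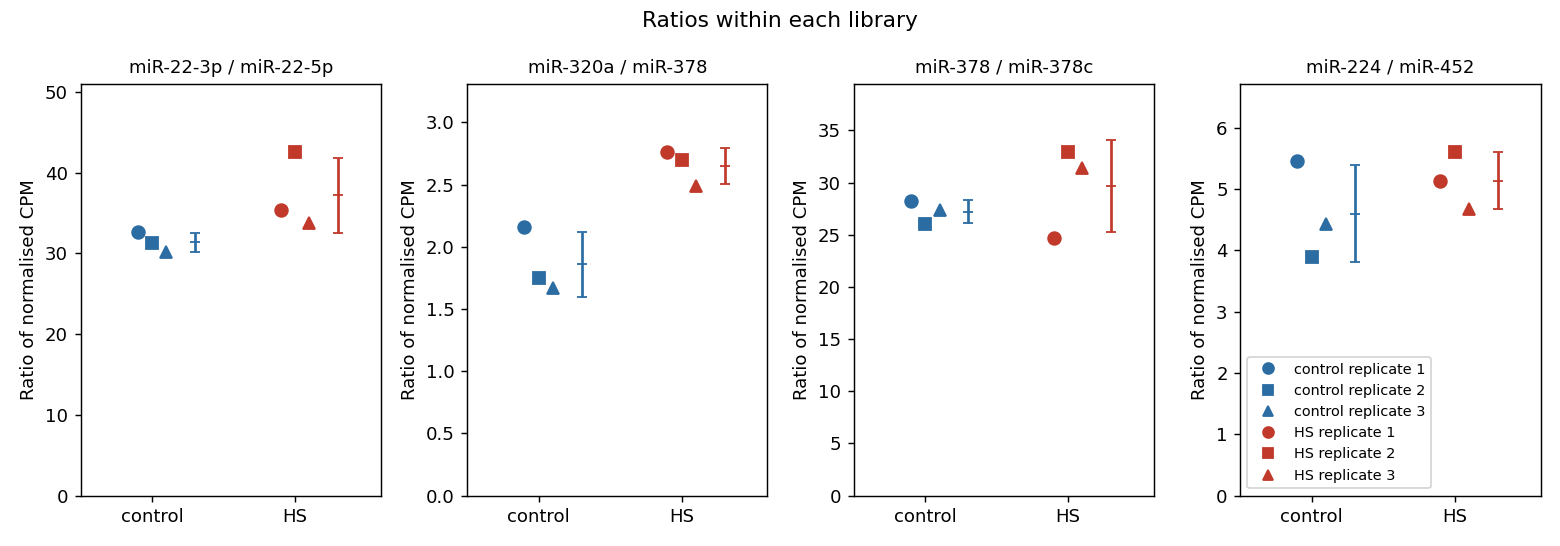
Ratios of normalised CPM within each library for 4 pairs of miRNAs, each axis starting at 0, with control libraries in blue, HS libraries in red, the symbol for the replicate number, and the mean with SD (n = 3) beside the points. The groups did not overlap for bta-miR-22-3p over bta-miR-22-5p or for bta-miR-320a over bta-miR-378, and overlapped for bta-miR-378 over bta-miR-378c and bta-miR-224 over bta-miR-452.

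Among the miRNAs tied to aromatase, bta-miR-378 stood at 2109, 2002 and 1875 normalised CPM in control and at 2101, 2167 and 1891 in heat-stressed cells. The groups overlapped, and in both replicate 3 was the lowest. The log2 fold change was 0.040 ± 0.114 (SE, limma adjusted p = 0.959), and the 95% interval of the fold ran from 0.853 to 1.24. Its sign was not settled, as it was negative with upper quartile scaling (-0.15) and ran from -0.004 without control replicate 3 to 0.098 without HS replicate 3.

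bta-miR-378c, a minor member of the same family, stood at 74.7, 77.1 and 68.5 normalised CPM in control and at 84.9, 65.8 and 60.2 in heat-stressed cells. HS replicate 1 was the highest of all libraries and HS replicate 3 the lowest, so the HS values enclosed the controls. The log2 fold change was -0.075 ± 0.185 (SE, limma adjusted p = 0.954). Its sign rested on single libraries, at 0.027 without HS replicate 3 and -0.217 without HS replicate 1, and it was -0.259 with upper quartile scaling. bta-miR-378 exceeded bta-miR-378c by 28.2, 26 and 27.4 times in control and by 24.7, 32.9 and 31.4 times in HS replicates 1, 2 and 3.

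For bta-miR-378b the control replicates held 1, 3 and 1 reads and the HS replicates 0, 1 and 1. Every library was at or under the floor of 3 reads, which corresponds to 0.639 to 1.465 normalised CPM, so no fold is given. The related bta-miR-378d, which is no member, was read 2, 4 and 4 times in the controls and 1, 1 and 2 times after HS. The log2 ratio of bta-miR-378b and bta-miR-378c together to bta-miR-378, with 1 added to both sides, was -4.74 ± 0.062 in control and -4.86 ± 0.215 in heat-stressed cells (SD, n = 3 each). The difference was -0.12 (p = 0.4 by the exact two-sided permutation test, which cannot go under 0.1). Without HS replicate 1 the difference was -0.243, and it was -0.042 without HS replicate 2 and -0.077 without HS replicate 3. How reads that match several members of a family were assigned is not stated in the sources used here, so the split within the family is uncertain.

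The family is spread over the genome. RefSeq gives bta-miR-378 a gene inside PPARGC1B, which encodes a coactivator of mitochondrial and lipid metabolism genes, and another inside CALCR, the calcitonin receptor gene. MIR378C lies inside ZNF521, and MIR378B overlaps no annotated gene.

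bta-miR-224, reported to raise estradiol output through SMAD4, stood at 805.6, 718.9 and 758.9 normalised CPM in control and at 851.8, 767.1 and 806.1 in heat-stressed cells. The groups overlapped narrowly, and the spread was small: 4.66% of all tested miRNAs had a smaller SD between replicates. The log2 fold change was 0.087 ± 0.119 (SE, limma adjusted p = 0.841), with a fold between 0.873 and 1.29 at 95%. It was 0.047 without control replicate 2 and 0.049 without HS replicate 1, and it turned to -0.099 with upper quartile scaling, which moved the median of all tested miRNAs to -0.18.

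MIR224 lies inside GABRE, which encodes a subunit of the GABA-A receptor, with MIR452 and MIR3431 beside it. bta-miR-452 had 167.7 ± 18.7 normalised CPM in control and 158.3 ± 18.8 in heat-stressed cells (SD, n = 3 each, log2 fold change -0.083, limma adjusted p = 0.939). bta-miR-3431 had 701.8 ± 38.3 and 657.9 ± 50 (log2 fold change -0.095, limma adjusted p = 0.839). bta-miR-224 exceeded bta-miR-452 by 5.46, 3.90 and 4.43 times in control and by 5.14, 5.60 and 4.68 times in HS replicates 1, 2 and 3, so the ratio within the cluster overlapped between the groups.

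bta-miR-383, the other miRNA linked to higher estradiol output, was at the low end of what could be measured. It stood at 9.76, 11.1 and 7.80 normalised CPM in control and at 6.30, 9.52 and 5.53 in heat-stressed cells. Only 20, 51 and 28 reads lay behind the control values and 19, 35 and 26 behind the HS values. HS replicates 1 and 3 lay below all controls, and HS replicate 2 lay among them. The log2 fold change was -0.40 ± 0.256 (SE), with a 95% interval of -1.0 to 0.21 (limma adjusted p = 0.57). The change was -0.255 without HS replicate 3 and -0.598 without HS replicate 2. Counting error alone was 18.7% in control and 20% in heat-stressed cells, beside coefficients of variation of 17.3% and 29.7%.

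bta-miR-202, the gonad-enriched miRNA, was abundant but varied between replicates of the same group. It stood at 1346, 2749 and 2726 normalised CPM in control and at 2095, 1309 and 1982 in heat-stressed cells. Control replicate 1 was near the lowest HS library and far below the other controls, and HS replicate 2 was the lowest of all. The means were 2274 ± 803 and 1795 ± 425 (SD, n = 3 each), and the log2 fold change was -0.30 ± 0.321 (SE), with a 95% interval of -1.06 to 0.46 (limma adjusted p = 0.814). Without control replicate 1 the groups did not overlap and the change was -0.64 on the log2 scale (limma adjusted p = 0.25), whereas without HS replicate 2 it was -0.085 (limma adjusted p = 0.99). It was -0.124 without control replicate 2 and -0.130 without control replicate 3.

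Counting error was far below this scatter. It was 1.35% in control and 1.26% in heat-stressed cells, while the coefficients of variation were 35.3% and 23.7%. The SD between replicates was 0.493 log2 units, and among the 161 tested miRNAs with a mean of at least 100 normalised CPM 87.6% had a smaller one. For bta-miR-22-3p, bta-miR-378 and bta-miR-224 the corresponding shares were 4.35%, 14.9% and 8.7%. As a share of the reads of the set, bta-miR-202 took 11.3% in control replicate 1 and 22.6% and 24% in the other controls, and 15.2%, 10.1% and 15.9% in HS replicates 1, 2 and 3. In RefSeq MIR202 lies inside SORCS3.

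**Figure D4:**
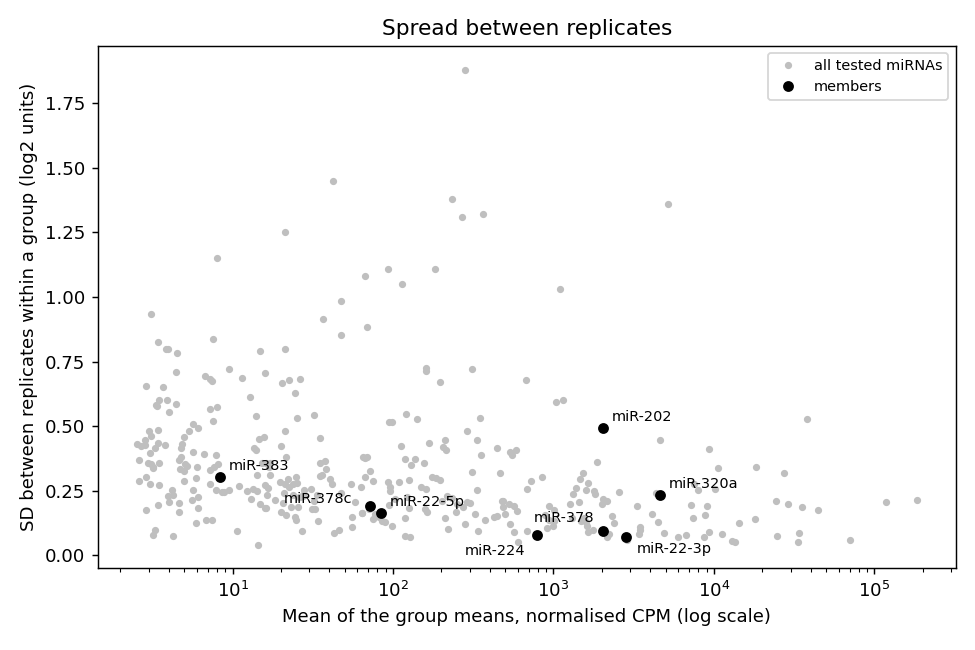
SD between replicates within a group (log2 units, pooled over control and HS) against mean level in normalised CPM (log scale), for all 365 tested miRNAs in grey and the 8 tested members in black. bta-miR-202, at 0.493, stands well above bta-miR-22-3p, bta-miR-378 and bta-miR-224, which lie along the lower edge.

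For each tested member the most similar miRNA outside the set was found by Pearson's r of log2 values over the 6 libraries, where points of 1 library share its depth and scaling and the best of 357 is high by construction. bta-miR-202 was most like bta-miR-362-3p (r = 0.984), which stood at 4.39, 8.47 and 9.19 normalised CPM in control and 6.30, 4.62 and 6.60 in heat-stressed cells, and thus was also lowest in control replicate 1 and HS replicate 2 of their groups. bta-miR-320a was most like bta-miR-2376 (r = 0.978), which at 2.93, 1.96 and 1.95 in control and 3.65, 3.54 and 3.19 in heat-stressed cells was also higher in every HS library. bta-miR-22-5p was most like bta-miR-375 (r = 0.985), bta-miR-224 like bta-miR-365-5p (r = 0.978) and bta-miR-378 like bta-miR-362-5p (r = 0.967). bta-miR-383 was most like bta-miR-184 (r = 0.964), bta-miR-22-3p like bta-miR-338 (r = 0.952) and bta-miR-378c like bta-miR-12015 (r = 0.876). Of these partners bta-miR-362-3p, bta-miR-2376, bta-miR-375, bta-miR-184 and bta-miR-12015 were low. With 1 read worth 0.213 to 0.488 normalised CPM they rest on few reads, so counting error weighs on their r.

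A further 19 miRNAs with a reported role in the hormone response, growth or survival of granulosa cells were compared in the same fit. Of these 18 passed the filter, and none reached an adjusted p of 0.2 in limma, against 7.12% of all tested, while 1 had an unadjusted p under 0.05, against 14.5%. bta-miR-143, bta-miR-145 and bta-miR-214 of this list are also among the theca or stroma markers. The adjusted p-values ran from 0.306 to 0.972, and the median log2 fold change was 0.033. Groups without overlap were seen for 2 of the 18, against 20% of all tested. bta-miR-34a, a p53-induced miRNA, had 1325 ± 222 normalised CPM in control and 1847 ± 359 in heat-stressed cells (log2 fold change 0.48, limma adjusted p = 0.306). bta-miR-17-5p, of the growth-promoting miR-17-92 cluster, had 649.8 ± 23.5 and 558.2 ± 20.6 (log2 fold change -0.22, limma adjusted p = 0.452). The gonadotropin-induced bta-miR-132 stood at 992 ± 84.3 and 1000 ± 72.8, a log2 fold change of 0.013. bta-miR-133b, studied for aromatase, did not pass the filter, with 10 reads over all libraries.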

How the data were processed

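Each small RNA library used 100 ng of RNA, adapters with molecular identifiers and 16 cycles of PCR. According to the labels and methods, the authors removed adapters (Cutadapt 1.11), merged reads with the same identifier, mapped them with Bowtie2 2.2.2 to UMD3.1, assigned them to miRBase and normalised them by TMM in edgeR. The deposited signal is thus TMM-normalised CPM, which assumes that most miRNAs do not change. In each library 100% of values were whole multiples of 1 read (tolerance 0.01 of a read), and these reads gave depth, floors (3 reads) and the filter. Floors cover counting error only, and the 95% intervals are limma's, from the spread between replicates.

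Deposited values were tested with limma 3.58.1 (mean-variance trend, R 4.3.3) on log2(value + 1), a scale that understates changes of low miRNAs, after filterByExpr of edgeR 4.0.16, with Benjamini-Hochberg adjustment over all 365 tested. The design named limma for a normalised unit, and the threshold combined an adjusted p of 0.2 with a log2 fold change of 1. The fit was tested on simulated reads. Replicates differed beyond sampling noise (chi-square 84.3 to 431 per degree of freedom). The highest values, 431 and 258, were those of control replicate 1 against control replicates 2 and 3. Alternatives were DESeq2 1.42.0, edgeR quasi-likelihood, other scalings, filters and pseudocounts, a replicate block and omission of each library. Recomputed TMM factors were added after the data were seen. Ratios were compared by exact permutation tests (Python 3.11.15). The members and lists were chosen with earlier results of these data known. The rule named all members, their hairpin, family or cluster partners, the further granulosa list by counts, extremes and calls, and the most similar miRNA. bta-miR-132, bta-miR-133b, bta-miR-17-5p, bta-miR-660 and bta-miR-708 were named after their values were seen. All 9 members matched a RefSeq gene in ARS-UCD2.0. The reads were mapped to another assembly, so no positions are given. No miRNA sequences were used here.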

Additional observations from a re-analysis of the deposited data

How the results depend on the processing

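No member passed an adjusted p of 0.2 with a log2 fold change of 1, or an adjusted p of 0.05, under any of the 17 alternatives, where 1.46% to 4.23% and 0.528% to 5.48% of all tested did, and none of the further granulosa miRNAs passed the first of these. The 1 member at an adjusted p of at most 0.2, bta-miR-320a, became 0 with upper quartile factors, TMM factors recomputed, no filter, a pseudocount of 0.5 and the edgeR quasi-likelihood test, where 34, 25, 14 (of 755), 23 and 25 of all tested passed against 26, and it lay between 0 and 1 on omission of any single library, where 8 to 29 did. The adjusted p of bta-miR-320a ran from 0.139 to 0.412 over 11 alternatives with all libraries and its log2 fold change from 0.37 to 0.58. The number of members whose groups did not overlap, 2, was 1 with upper quartile factors (bta-miR-22-5p) and 1 with library totals (bta-miR-320a), against 22.7% and 18.9% of all tested. It was 3 of 9 with no filter, which adds bta-miR-378b at its floor, against 13.9%, and 2 to 4 on omission of a library, where 26% to 37.5% of all tested did not overlap. The 4 without control replicate 1 included bta-miR-202 and bta-miR-224. Of 135 comparisons of a member under an alternative, 121 kept direction and side of 0.2, 10 were no longer past it and 4 changed sign. With upper quartile factors bta-miR-378 was at -0.146 and bta-miR-224 at -0.099, and the median of all tested miRNAs was itself -0.178. On omission of single libraries, bta-miR-378 ran from -0.004 to 0.098 and bta-miR-378c from -0.217 to 0.027. The cause was not tested. The minimum of 10 normalised CPM in 2 libraries of a group left out bta-miR-383.

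The labels share replicate numbers between groups without saying what a number stands for. Deviations from the group means correlated at 0.421, -0.117 and 0.616 for numbers 1, 2 and 3, and 4 of 6 libraries correlated best with their own number. Because number 2 was negative, the samples were treated as unpaired in the main fit. These values cannot decide whether libraries of the same number shared a pool of cells. With the replicate block the number of members past the first threshold was 0, at an adjusted p of at most 0.2 it was 1 (bta-miR-320a, 0.139) and under 0.05 it was 0, and over all tested miRNAs the numbers were 10, 27 and 6 against 11, 26 and 8. The paired log2 ratio of the miR-22 arms differed by 0.234 (exact sign-flip test, p = 0.25, the smallest possible) and that of the miR-378 family by -0.121 (exact sign-flip test, p = 0.5).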
